A study of Mus musculus with 8 samples.

Results

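Hepatokines are proteins that the liver secretes into the blood and that act on other tissues or on the liver itself. 7 of them were followed by gene symbol in the liver table: Fgf21, Gdf15, Inhbe, Angptl4, Ahsg, Fetub and Lect2. All 7 were among the 11784 genes listed. The rule that picks them uses symbols, not values, but the 7 were chosen with earlier results of these data known. Livers came from 8 male C57BL/6J mice, an inbred strain, that were group housed and put on amino acid-defined diets at 9 weeks of age. 4 mice ate the Control diet (TD.140711) and 4 ate the Low AA diet (TD.140712) for 4 months. As a share of calories the Low AA diet holds less amino acid and more carbohydrate. All 8 mice were killed after an overnight fast of about 16 h. No gene was altered in any mouse, and each liver is 1 mouse and 1 replicate. The comparison asks whether the liver holds more or less mRNA for these secreted proteins on the Low AA diet. Less amino acid and more carbohydrate cannot be told apart in this design.

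FGF21 is a hormone whose liver transcription is driven by PPARA, the fatty acid sensor of fasting, and by ATF4, the transcription factor that is translated when amino acids run short, and it is known as the endocrine signal of protein restriction. GDF15 and INHBE are members of the TGF-beta family whose genes also respond to ATF4 and related stress factors, and ANGPTL4 is a PPARA target that inhibits lipoprotein lipase. AHSG (fetuin-A) and FETUB (fetuin-B) are abundant plasma proteins of the cystatin superfamily, and LECT2 is a secreted protein linked to insulin resistance in muscle.

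The deposited values are scaled read counts, that is, reads per gene multiplied by a factor for each mouse and rounded. They summed to between 27876664 and 30799385 per mouse over the listed genes, and the median gene lay between 433 and 449 in every mouse. Such near-equal medians are read as a result of the scaling, so they do not test whether the mice are comparable. All 8 hepatocyte markers were present, with a summed value of 2155522 to 2553000 in Control and 2429954 to 2636409 in Low AA livers. None of the 5 adipose and none of the 4 muscle markers was listed. Control mouse F2212 stood apart, with 36587 for Cela1, a pancreatic elastase, against 130 to 288 in the other 7 mice, and it also had the highest median of the acute-phase genes.

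None of the 7 hepatokines passed the test of diet (limma on log2(value + 1), adjusted p under 0.05 over all genes), against 0.399% of all genes tested, and none passed at an unadjusted limma p under 0.05, against 11.8% of all genes, so that 0 of 7 is near the background. The values of the diets overlapped for all 7, while 6.81% of all genes had no overlap. On the log2 scale 4 hepatokines were higher and 3 lower in Low AA livers, with a median difference of 0.13 beside 0.002 over all genes. The median turned to -0.0643 without Control mouse F7111 and to -0.00202 without Low AA mouse H1315, each with 3 higher and 4 lower, and was 0.03 without Control mouse F129. The widest differences were those of Fgf21 at 0.56 and Gdf15 at 0.48, and these were also the genes whose mice differed most within a diet. The plot of values by mouse shows each of the 8 livers for each gene.

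**Figure D1:**
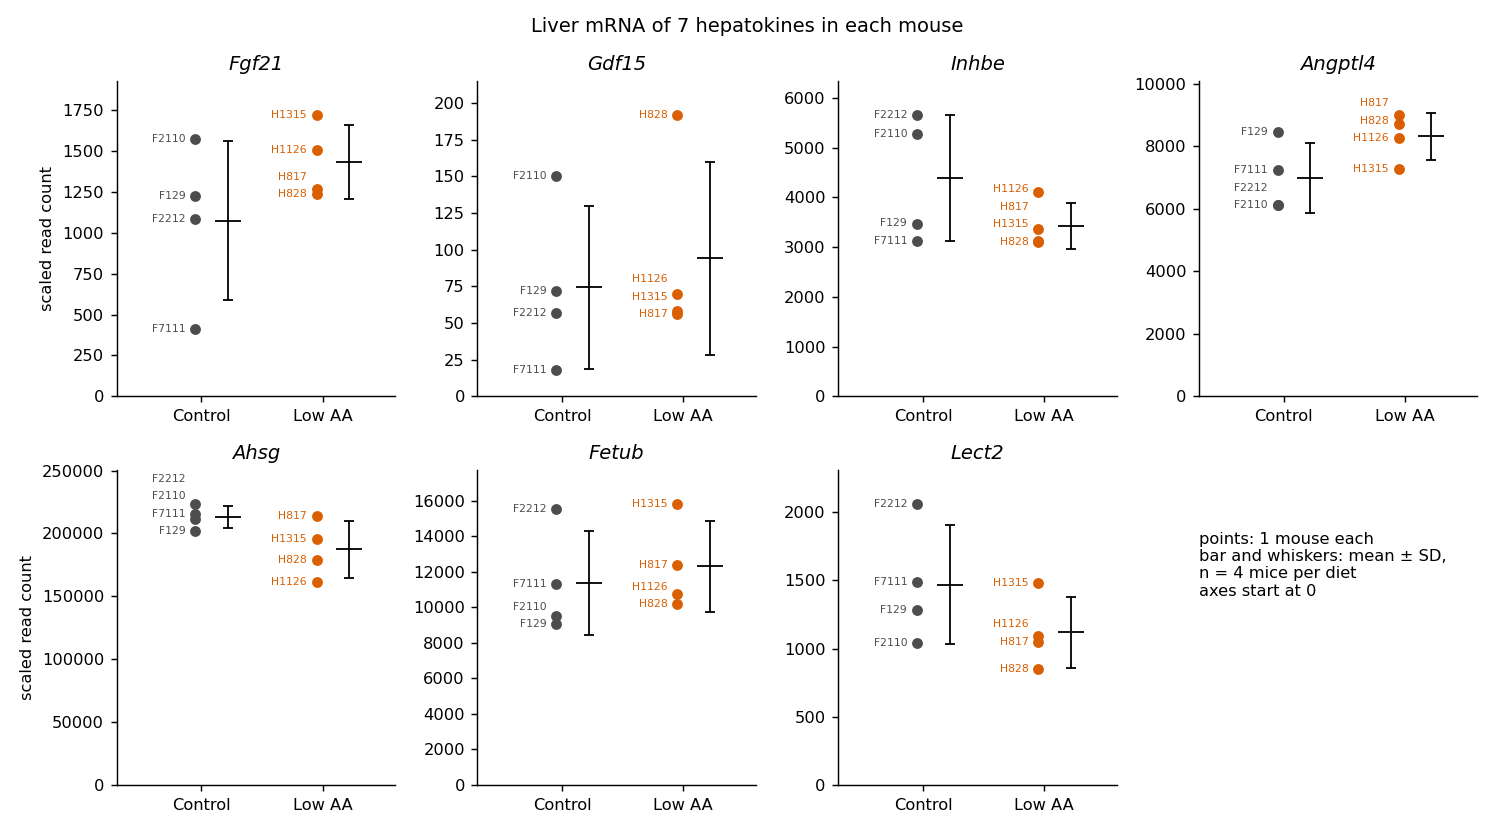
Scaled read counts (vertical axes, starting at 0) of the 7 hepatokines in each of the 4 Control (grey) and 4 Low AA (orange) livers, with bars and whiskers for the mean ± SD, n = 4. The 2 diets overlap in every panel, and Control mouse F7111 lies far below the other mice for Fgf21, at 412, and for Gdf15, at 18.

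The Fgf21 gene (ENSMUSG00000030827.5) lies on chromosome 7 from base 45613886 to 45615490 of the mm10/GRCm38 assembly, on the minus strand, in 3 exons. Its promoter is shown because it was the one among the hepatokines with matches to 2 of the 3 motifs searched. The 250 bases before its RefSeq start, chr7:45615491-45615740 on the minus strand, are given 5′ to 3′ with the matches in capitals.
Fgf21 upstream: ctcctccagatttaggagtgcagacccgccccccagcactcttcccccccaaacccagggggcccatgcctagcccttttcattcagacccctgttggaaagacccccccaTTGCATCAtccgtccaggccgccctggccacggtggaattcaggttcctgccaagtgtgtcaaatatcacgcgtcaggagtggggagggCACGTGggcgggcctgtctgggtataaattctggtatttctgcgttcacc
The first run in capitals is the reverse complement of TGATGNAA, the core of the element that ATF4 binds with a C/EBP partner, and starts 139 bases before the start site. The second is CACGTG, an E-box, 50 bases before it.

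Inhbe, the gene for the beta E chain of activin, held the same TGATGNAA match as Fgf21, also on the strand opposite to the gene, and Gdf15 held an E-box in the window of its second RefSeq start. The matches of the 3 genes are lined up here in capitals, each with 10 bases on either side, on the strand of the gene.
Fgf21 TGATGNAA match: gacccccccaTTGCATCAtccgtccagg
Inhbe TGATGNAA match: atcctctttcTTGCATCAtgcatgtcca
Fgf21 CACGTG match: gtggggagggCACGTGggcgggcctg
Gdf15 CACGTG match: cagggcagggCACGTGtgagcatcca
The Inhbe match lay at chr10:127352022-127352029, 181 bases before the RefSeq start, and the Gdf15 match at chr8:70632173-70632178, 83 bases before the second start. Windows of 250 bases before to 50 after the start were searched on both strands for TGATGNAA, for CACGTG and for AGGTCA repeated in the same direction with 1 base between, the element of PPARA with RXR. RefSeq windows (GRCm38.p6) were matched for 6 of the 7 genes, all but Angptl4. TGATGNAA was in 3.97% of all 32851 windows, CACGTG in 7.15% and the repeat in 0.0396%. Counted by gene, as the hepatokines are, TGATGNAA was in 2 of 6 hepatokines and 2.74% of the 8500 genes of the liver table that have a window, and CACGTG in 2 of 6 and 12.1%. No match to the repeat lay in a window of the 6 genes, and Ahsg, Fetub and Lect2 held none of the 3 motifs. These are matches of letters, and binding was not measured.

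Fgf21 mRNA in the Control livers was 1227 in F129, 1086 in F2212, 412 in F7111 and 1573 in F2110. In the Low AA livers it was 1506 in H1126, 1238 in H828, 1266 in H817 and 1723 in H1315. H1315 was above all 4 Control livers and the other 3 Low AA livers were below F2110 alone, so that Low AA had the higher value in 13 of the 16 pairs of a Low AA and a Control mouse. The means were 1433 ± 228 on Low AA and 1075 ± 487 on Control (SD, n = 4). The log2 fold change was 0.56, with an SE of 0.34 and a 95% interval from -0.20 to 1.32 (limma adjusted p = 0.591, two-sided exact permutation p = 0.229). As a ratio this is 1.47-fold, with an interval from 0.868 to 2.50. The interval thus covers both no change and a rise above 2-fold.

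Much of the Fgf21 difference lay in 1 Control liver. Without F7111 the log2 fold change was 0.15, and without F2110, the highest Control mouse, it was 0.79. The coefficient of variation was 45.3% in Control and 15.9% in Low AA livers, and the highest Control value was 3.82 times the lowest, against 1.39 times on Low AA. The SD of log2 values within diets was 0.62 for Fgf21, which is larger than that of 96.7% of all genes, whose median SD was 0.22.

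Gdf15 (ENSMUSG00000038508.7) encodes a stress hormone that lowers food intake through a receptor in the hindbrain. It lies on chromosome 8 from 70629393 to 70632456 on the minus strand, in 2 exons. The Control livers held 72 in F129, 57 in F2212, 18 in F7111 and 150 in F2110. The Low AA livers held 70 in H1126, 192 in H828, 56 in H817 and 58 in H1315. 1 mouse on each diet, F2110 and H828, was high, F7111 was low, and the other 5 lay between 56 and 72, with both diets among them. The means were 94.0 ± 65.6 on Low AA and 74.3 ± 55.4 on Control (SD, n = 4). The log2 fold change of 0.48 had an SE of 0.59 and an interval from -0.82 to 1.78 (limma adjusted p = 0.819, two-sided exact permutation p = 0.543). Without F7111 the sign turned, to -0.06. Gdf15 was the least expressed of the 7, and its SD within diets was larger than that of 99.5% of all genes.

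Inhbe (ENSMUSG00000047492.5) encodes a secreted subunit of activin E, made mainly in hepatocytes and linked to fat storage in adipose tissue. It lies on chromosome 10 from 127348857 to 127354411 on the minus strand. Inhbe was 3472 in F129, 5663 in F2212, 3129 in F7111 and 5271 in F2110 on Control. On Low AA it was 4105 in H1126, 3108 in H828, 3361 in H817 and 3129 in H1315. 2 Control livers stood above all Low AA livers, and the other 2 lay within the Low AA range. The mean was 3426 ± 467 on Low AA against 4384 ± 1269 on Control (SD, n = 4), a log2 fold change of -0.32 (SE 0.19, interval -0.75 to 0.11, limma adjusted p = 0.585, two-sided exact permutation p = 0.229). Without F2212 the difference was -0.18. The annotated gene Gm47200 runs over Inhbe on the opposite strand. The libraries were stranded, but the strand setting of the counting is not given in the sources used here, so reads of the pair may have been shared.

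Of the genes of nutrient and stress response, Inhbe thus had the opposite sign to Fgf21 and Gdf15. Fgf21 and Gdf15 shared their lowest mouse, F7111, which differed from the mean of the 8 mice by -1.50 for Fgf21 and by -1.88 for Gdf15 on the log2 scale. Inhbe in that mouse differed by -0.28, the same as in Low AA mouse H1315.

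Angptl4 (ENSMUSG00000002289.16), on chromosome 17 from 33773750 to 33781830 on the minus strand in 7 exons, came closest to the threshold by the limma p. Its Control values were 8468 in F129, 6122 in F2212, 7234 in F7111 and 6119 in F2110, and its Low AA values were 8260 in H1126, 8707 in H828, 9010 in H817 and 7288 in H1315. 3 of the 4 Control livers were below every Low AA liver, and F129 alone lay among them. Low AA was the higher in 14 of the 16 pairs of mice. The means were 8316 ± 752 and 6986 ± 1119 (SD, n = 4), and the log2 fold change was 0.26 (SE 0.13, interval -0.02 to 0.54, limma adjusted p = 0.466, two-sided exact permutation p = 0.114). The interval bounds the fold between 0.986 and 1.45, which is much narrower than for Fgf21. The difference was 0.20 to 0.36 with each mouse left out in turn.

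Ahsg (ENSMUSG00000022868.6) and Fetub (ENSMUSG00000022871.13) are neighbours on the plus strand of chromosome 16. Ahsg spans 22891277 to 22899449 in 7 exons and Fetub 22918334 to 22939778 in 9. Fetuin-A binds mineral in plasma and inhibits the insulin receptor in cell assays, and fetuin-B inhibits the protease ovastacin, which fertility depends on. Ahsg was 201969 in F129, 223815 in F2212, 211203 in F7111 and 215435 in F2110 on Control, and 161014 in H1126, 179262 in H828, 213917 in H817 and 195824 in H1315 on Low AA. 3 Low AA livers lay below every Control liver, and H817 lay within the Control range. Ahsg ranked 19 of all genes by mean value, so counting error is small here, and the mean was 187504 ± 22631 on Low AA against 213106 ± 9088 on Control (SD, n = 4). The log2 fold change was -0.19 (SE 0.13, interval -0.48 to 0.10, limma adjusted p = 0.633, two-sided exact permutation p = 0.0857, where 4 against 4 mice cannot go below 0.0286). The annotated gene Gm30505 overlaps Ahsg on the opposite strand.

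Fetub was 9051 in F129, 15503 in F2212, 11327 in F7111 and 9515 in F2110 on Control. On Low AA it was 10763 in H1126, 10181 in H828, 12393 in H817 and 15839 in H1315. 1 mouse of each diet, F2212 and H1315, was high, and the other 6 ranged from 9051 to 12393 with the diets mixed. The means were 12294 ± 2542 and 11349 ± 2938 (SD, n = 4), a log2 fold change of 0.13 (SE 0.19, interval -0.29 to 0.55, limma adjusted p = 0.855, two-sided exact permutation p = 0.543). Without H1315 it was -0.00202 and without F2212 it was 0.29.

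Lect2 (ENSMUSG00000021539.9), on chromosome 13 from 56542464 to 56548502 on the minus strand in 4 exons, was 1282 in F129, 2063 in F2212, 1485 in F7111 and 1041 in F2110 on Control. It was 1092 in H1126, 850 in H828, 1051 in H817 and 1479 in H1315 on Low AA. F2212 was the highest of all mice and H828 the lowest. H1315 lay among the Control mice, and H1126 and H817 lay above F2110. The means were 1118 ± 263 on Low AA and 1468 ± 436 on Control (SD, n = 4), a log2 fold change of -0.38 (SE 0.22, interval -0.86 to 0.11, limma adjusted p = 0.556, two-sided exact permutation p = 0.257). Without F2212 the difference was -0.20.

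**Figure D2:**
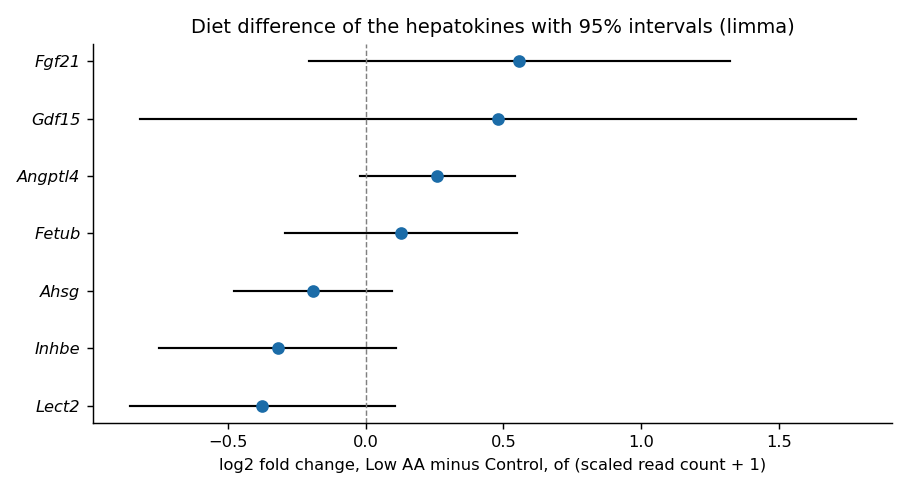
Log2 fold change of the scaled read count + 1, Low AA minus Control (horizontal axis), of the 7 hepatokines with 95% intervals from limma, n = 4 mice per diet. Every interval holds 0. The narrowest are those of Angptl4 and Ahsg and the widest is that of Gdf15, from -0.82 to 1.78.

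The intervals in the plot of diet differences differ several-fold in width, and a missed threshold has a different reach for each gene. For Ahsg a change beyond 1.07-fold upwards or below 0.718 of Control lay outside the interval, while for Gdf15 the interval ran from 0.567 to 3.43-fold. In whole liver, fewer cells that make a transcript and less of it per cell cannot be told apart.

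Per kilobase of the longest consensus transcript, which allows genes to be compared, Ahsg was highest, with a mean level of 143602 in Control and 126351 in Low AA livers. Fetub followed with 7106 and 7698, and Angptl4 with 2112 and 2514. Lect2 had 1754 and 1336, and Fgf21 had 1130 and 1507. Inhbe had 824 and 644, with the limit that its only annotated transcript begins 2563 bases before the RefSeq start, which lowers its level if those bases are not used. Gdf15 was last, with 48.1 and 60.8. In Control livers the neighbours Angptl4 and Lect2, Lect2 and Fgf21, and Fgf21 and Inhbe overlapped in range, and 3 of 4 mice had each of these pairs in the order given. In Low AA livers Fgf21 stood above Lect2 in 4 of 4 mice, although the ranges of the 2 genes overlapped, and no other neighbours overlapped.

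**Figure D3:**
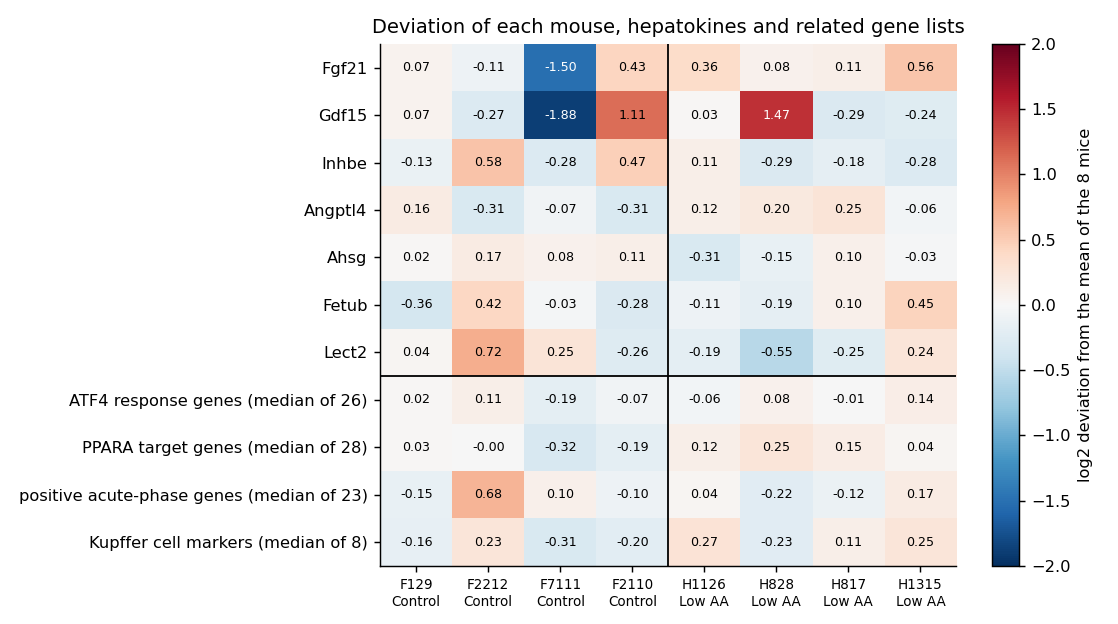
Log2 deviation of each mouse (columns) from the mean of the 8 mice for the 7 hepatokines and for the median of 4 related gene lists (rows), with values printed and blue for low, red for high. F7111 is lowest for Fgf21 (-1.50), Gdf15 (-1.88) and the PPARA targets (-0.32), and F2212 is highest for Lect2 (0.72), Inhbe (0.58) and the acute-phase genes (0.68).

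Related gene lists are set beside the hepatokines mouse by mouse, with no test of whether they vary together. F7111, lowest for Fgf21 and Gdf15, was also lowest for the median of 28 PPARA target genes (-0.32) and of 26 ATF4 response genes (-0.19), as the map of deviations by mouse shows. The mice highest for Fgf21 did not line up with both lists in this way. F2110, next to highest for Fgf21 at 0.43, was at -0.19 for the PPARA targets and -0.07 for the ATF4 genes. H1315, highest for Fgf21 at 0.56, had the lowest PPARA median of the Low AA mice, at 0.04. The ATF4 median of H1315 was the highest of all mice, at 0.14. F2212, highest for Lect2 at 0.72, Inhbe at 0.58 and Ahsg at 0.17, was highest for the median of 23 acute-phase genes listed as raised by inflammation, at 0.68. H1315, highest for Fetub at 0.45, had the next highest acute-phase median, at 0.17. Of the cell type markers, F7111 had the lowest medians for Kupffer cells (-0.31), sinusoidal endothelial cells (-0.29) and blood (-0.82) but the highest for hepatocytes (0.16). F2212 had the highest medians for blood (1.05) and lymphocytes (0.97). Whether these lists or cells have a part in the hepatokine values was not tested.

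Over the 8 mice 21 pairs of hepatokines were compared by correlation of log2 values, and none passed after adjustment for 21 tests (smallest adjusted exact permutation p = 0.508 for Pearson and 0.735 for Spearman). Fetub and Lect2 had r = 0.67 (n = 8, exact permutation p = 0.0725, adjusted 0.508) and rho = 0.55 (exact permutation p = 0.171, adjusted 0.735). Among Control mice alone r was 0.93 and among Low AA mice alone 0.92, each over 4 mice. Without F2212 and H1315, the mice farthest from the median of Fetub, r was 0.05. With each value taken as a deviation from its diet mean, r was 0.92 over the 8 mice and 0.65 over the 6 left without F2212 and H1315. The raw relation thus rested on those 2 mice, and the relation within diets was weaker without them but kept its sign.

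Fgf21 and Gdf15 had r = 0.72 (n = 8, exact permutation p = 0.0662, adjusted 0.508) and rho = 0.38 (exact permutation p = 0.360, adjusted 0.818). This rested on F7111, since r was 0.06 without that mouse alone. Without F7111 and H1315 r was 0.36, and r was 0.97 among Control but -0.55 among Low AA mice. Angptl4 and Inhbe had r = -0.74 (n = 8, exact permutation p = 0.0394, adjusted 0.508) and rho = -0.54 (exact permutation p = 0.175, adjusted 0.735), but r was 0.31 without F2212 and F2110, -0.84 among Control mice and 0.13 among Low AA mice.

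**Figure D4:**
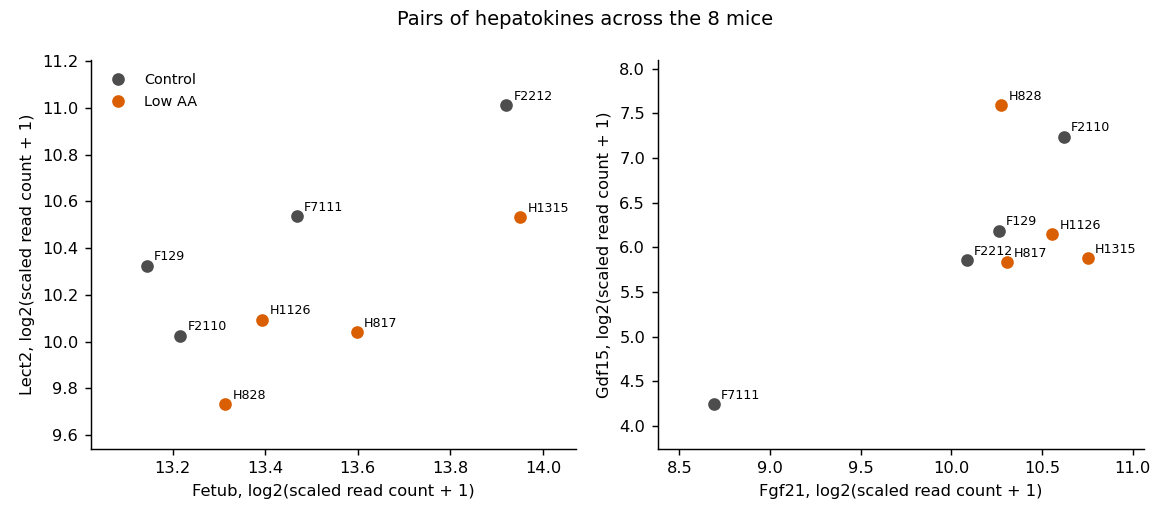
Log2 of the scaled read count + 1 of Lect2 against Fetub (left) and of Gdf15 against Fgf21 (right) in the 8 mice, Control in grey and Low AA in orange, each point 1 mouse. On the left F2212 and H1315 are the highest mice for Fetub, and on the right F7111 lies alone at the lower left.

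The genes whose values followed a hepatokine most closely are given as a description over the 8 mice. They are the 3 with the highest r among all other genes, so a high r is in part a product of that choice. Their rho ran from 0.73 (Zfp316 with Inhbe) to 0.95 (such as Lrrc42 with Lect2). For Fgf21 they were Cops6, a subunit of the COP9 signalosome (r = 0.98), Poglut1 (r = 0.96) and Sub1 (r = 0.96). In F7111 Cops6 was 2721, against 3567 to 4018 in the other mice, so it shared the low mouse with Fgf21, over a much smaller span. For Lect2 they were Lrrc42 (r = 0.99), Cdkn2aipnl (r = 0.98) and 1100001G20Rik (r = 0.97). For Inhbe they were Pdk1, a pyruvate dehydrogenase kinase (r = 0.95), Gal3st1 (r = 0.93) and Zfp316 (r = 0.93).

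For Angptl4 the closest genes were Tm9sf2 (r = 0.96), Rbm10 (r = 0.96) and Ncoa5 (r = 0.95). For Ahsg they were Cdan1 (r = 0.97), Nags (r = 0.93), which makes the activator of the urea cycle, and Dhx32 (r = 0.92). For Fetub they were Jagn1 (r = 0.96), 5430417L22Rik (r = 0.96) and Gpatch3 (r = 0.95), and for Gdf15 Mknk1 (r = 0.97), Gtpbp3 (r = 0.96) and the angiopoietin receptor Tek (r = 0.95). None of these 21 genes passed the test of diet (limma, adjusted p under 0.05).

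The genes around the hepatokines were taken by list. Of the 28 genes of fasting and PPARA, the route to Angptl4 and Fgf21, 27 were higher in Low AA livers and 1 was lower, with a median log2 fold change of 0.25. None passed the threshold, 11 had an unadjusted limma p under 0.05, beside 11.8% of all genes, and 7 had no overlap between diets, all of them higher, beside 6.81% of all genes in either direction. Plin5, which coats lipid droplets, was 5878 ± 420 on Low AA and 3807 ± 708 on Control (SD, n = 4, log2 fold change 0.64, limma adjusted p = 0.0811). Pex11a, a peroxisome protein, differed by 0.55 (limma adjusted p = 0.0869) and Mgll, a monoglyceride lipase, by 0.50 (limma adjusted p = 0.160). Without F7111 the number higher was 22 of 28, and without F2212, 2 of the 28 genes, Plin5 and Pex11a, passed (limma adjusted p = 0.0245 and 0.0337). Without F2212 the number of all genes that passed also rose, from 47 to 77. All 8 Kupffer cell markers were likewise higher, 0 past the threshold, with summed values of 7524 to 11136 in Control and 7979 to 11333 in Low AA livers, and their part in the list was not tested.

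The amino acid response genes of ATF4, the other route to Fgf21, were split, with 13 higher and 13 lower of the 26 listed of 31 and a median of -0.01. None passed, and 7 had an unadjusted limma p under 0.05, beside 11.8% of all genes. Of these, Asns differed by 1.30 (limma adjusted p = 0.321) and Psat1 by 0.87 (limma adjusted p = 0.409), both with overlap. Eif4ebp1 differed by -0.32 (limma adjusted p = 0.347) and Shmt2 by -0.24 (limma adjusted p = 0.409), also with overlap. Of the 26 genes, 4 had no overlap between diets, 3 higher and 1 lower, beside 6.81% of all genes in either direction. Vldlr, a lipoprotein receptor, was 52, 79, 44 and 46 in Control mice F129, F2212, F7111 and F2110 and 180, 172, 104 and 102 in Low AA mice H1126, H828, H817 and H1315, without overlap (log2 fold change 1.31, limma adjusted p = 0.0711). Vldlr passed without F2212 (1.49, limma adjusted p = 0.0323), where 77 of all genes passed, against 47 with all 8 mice. The cell cycle inhibitor Cdkn1a differed by 1.52 (limma adjusted p = 0.196) and Ddit4, an inhibitor of mTORC1, by 0.72 (limma adjusted p = 0.281), both without overlap. Psph, also without overlap, went the other way, at -0.38 (limma adjusted p = 0.462). Without F2212 the Ddit4 difference was 0.44. The number higher ran from 10 to 16 of 26 with each mouse left out in turn, and it was 10 without F7111 and without H1315.

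**Figure D5:**
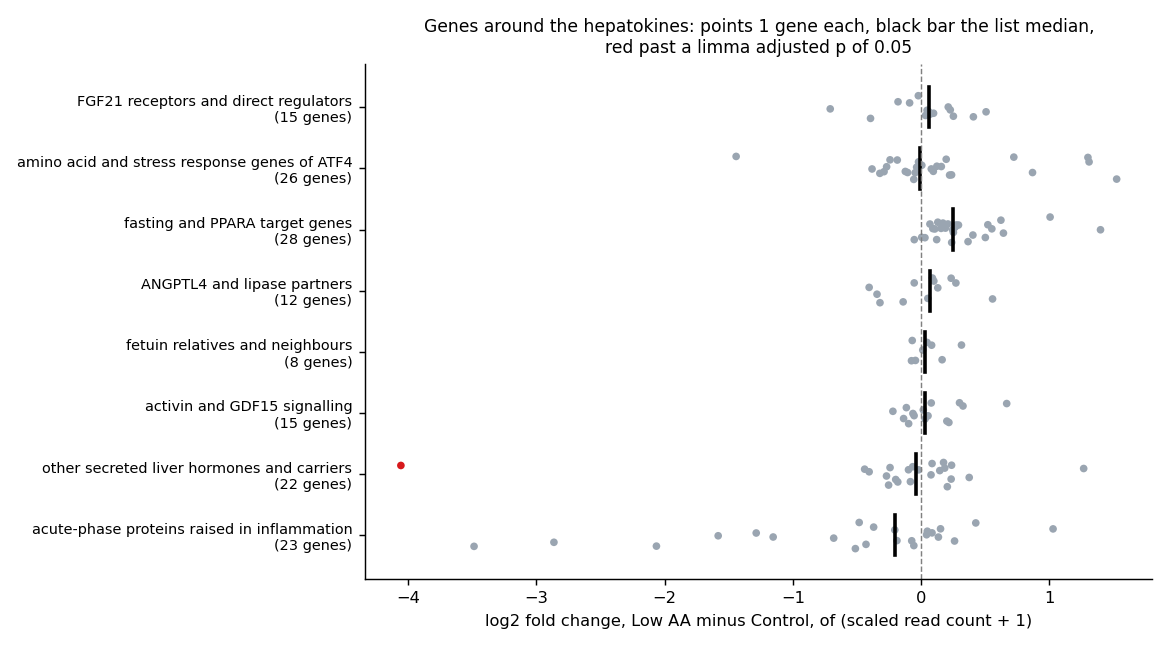
Log2 fold change of the scaled read count + 1, Low AA minus Control (horizontal axis), of single genes (points) in 8 lists around the hepatokines, with the list median as a black bar and genes past a limma adjusted p of 0.05 in red. The PPARA targets lie mostly right of 0 with a median of 0.25, the ATF4 genes lie on both sides, and Tff3 at -4.06 is the one gene in red.

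Genes for FGF receptors, and for the co-receptor and regulators of FGF21, were measured too. In this list 10 of 15 genes were higher and 5 lower, with a median of 0.06, and none passed. 2 had no overlap between diets, both lower, beside 6.81% of all genes in either direction. Fgfr1, the main FGF21 receptor elsewhere in the body, was 145, 194, 258 and 208 in Control mice F129, F2212, F7111 and F2110, and between 105 and 132 in the 4 Low AA mice. Every Low AA liver was below every Control liver, with a log2 fold change of -0.71 (SE 0.18, interval -1.10 to -0.31, limma adjusted p = 0.135). Fgfr4, the main hepatocyte FGF receptor, also had no overlap and a difference of -0.39 (limma adjusted p = 0.261), and the co-receptor Klb differed by 0.25 (limma adjusted p = 0.458).

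Around Angptl4, 7 of the 12 lipase partners were higher and 5 lower with a median of 0.07, and none passed. The lipase maturation factor Lmf1 differed by -0.32 (limma adjusted p = 0.305), Hilpda, an inhibitor of a lipid droplet lipase, by 0.56 (limma adjusted p = 0.466), and Angptl8, listed as Gm6484, by -0.40 (limma adjusted p = 0.688). With single mice left out Hilpda ran from 0.27 (without F7111) to 0.76 and Angptl8 from -0.68 (without F129) to -0.24 (without F2110). Of the fetuin relatives 5 were higher and 3 lower of 8 with a median of 0.03, and none passed. The kininogens Kng2 and Kng1 differed by 0.31 (limma adjusted p = 0.443) and 0.08 (limma adjusted p = 0.887), and the insulin receptor gene Insr by 0.16 (limma adjusted p = 0.744).

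Of the 15 genes of activin and GDF15 signalling 9 were higher and 6 lower with a median of 0.03, and none passed. The activin antagonist Fst differed by 0.67 (limma adjusted p = 0.703), the hepatocyte growth factor receptor Met by 0.20 (limma adjusted p = 0.569) and Smad2 by -0.14 (limma adjusted p = 0.733). Fst ran from 0.39 (without F2212) to 1.13 (without F2110) with single mice left out.

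Among 22 other secreted liver hormones and carriers 10 were higher and 12 lower, with a median of -0.04, and 1 passed. Tff3, a trefoil peptide, fell from 184, 166, 124 and 113 in Control mice F129, F2212, F7111 and F2110 to 4, 7, 15 and 8 in Low AA mice H1126, H828, H817 and H1315 (log2 fold change -4.06, SE 0.34, limma adjusted p = 0.00134). Tff3 had been put on the list with its fall known, so its call is no evidence about the list. The 4 cholangiocyte markers listed of 6 were all lower on Low AA, 0 past the threshold, with sums of 1124 to 2265 in Control and 826 to 1316 in Low AA livers, and their part in the Tff3 value was not tested. Igfbp2, which binds insulin-like growth factors, differed by 0.38 (limma adjusted p = 0.369), and the protease gene Dpp4 by -0.27 (limma adjusted p = 0.351).

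Acute-phase genes were listed because plasma proteins of the liver change in inflammation. 8 of the 23 genes listed as raised by inflammation were higher on Low AA and 15 lower, with a median of -0.20, and none passed. Orm1 differed by -2.06 (limma adjusted p = 0.0908) and Saa4 by -1.29 (limma adjusted p = 0.0915), both without overlap, and Apcs by 1.03 (limma adjusted p = 0.192). In the list 4 genes had no overlap between diets, 1 higher and 3 lower, beside 6.81% of all genes in either direction. The others were Saa1 at -3.49 (limma adjusted p = 0.261) and Cp at 0.26 (limma adjusted p = 0.347). Without F2212 the median of the list was -0.08. Of the 10 genes listed as lowered by inflammation, a group to which Ahsg is usually counted, 6 were higher and 4 lower with a median of 0.02, and none passed. Albumin (Alb) differed by 0.20 (limma adjusted p = 0.717), the transferrin receptor Tfrc by 0.28 (limma adjusted p = 0.803) and transferrin (Trf) by -0.11 (limma adjusted p = 0.811). Without F2212 the log2 fold change of Tfrc was 0.00183.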

How the data were processed

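Poly(A) RNA from 8 livers was sequenced from stranded libraries. The authors deposited 1 table with a signal for each gene and mouse, a scaled and rounded read count (scaling and filter not given in the sources used here), beside their own signed fold change, a score, and their FDR, a q-value, which were not used. That the values are scaled was read from the nearly equal medians of the mice and from gaps and doublings among low whole numbers, so no count model was fitted. The submitters' processing notes name bcl2fastq 1.8.2, STAR 2.5.0a, RSEM 1.2.6, edgeR 3.10.5, R 3.2.1 and mm10, with no role given.

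The diets were compared on log2(value + 1). The fit was limma 3.58.1 (R 4.3.3), its prior variance following the mean level, with p adjusted by Benjamini-Hochberg over 11784 genes, in a script tested on simulated data. No filter on low values was added, so all 7 hepatokines entered. Fold changes on this scale understate those of low genes. No pairing was fitted, since the labels give the mice of the diets different codes. Exact permutation tests went through all splits or pairings of the mice, with ranks and the adjustment over pairs from scipy 1.17.1. Figures were made with matplotlib 3.10.9.

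The hepatokines and the lists were chosen with earlier results of these data known. Genes named were all hepatokines, in each list those past the threshold and the 3 with the smallest adjusted p, for each hepatokine the 3 with the highest r, and markers. Asns, Psat1, Eif4ebp1 and Shmt2 of the ATF4 list were named in addition, for their unadjusted limma p under 0.05. Psph of the same list, and Saa1 and Cp of the acute-phase list, were named for their lack of overlap between diets. Cela1 is the one pancreas marker of 6 in the table. Positions and transcript lengths came from GENCODE M21 (GRCm38, the assembly of mm10) and promoters from RefSeq. Alternatives were pseudocounts of 0.1 and 5, the 8000 genes of highest mean, equal column totals, median ratio scaling, no trend, robust moderation and each mouse left out. The counts of the lists with a mouse left out, and correlations without the farthest mouse or of deviations from diet means without the farthest 2, were added after the data had been seen.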

Additional observations from a re-analysis of the deposited data

Results flagged for a closer look

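Values of log2(value + 1) for the 4 mice of each diet were screened for a mouse far from the rest, with the gap to the nearest mouse divided by the range of the group, in 68 groups of 4 values, against Dixon's 95% critical value. Chance flags about 1 in 20 groups, or 3.4 here, and 2 stood out, neither of them a hepatokine. Both were Control mouse F2212 and both were genes of the ATF4 list. For Cdkn1a the ratio was 0.851, with 159 in F2212 against 501 to 612 in the other Control mice. For Ddit4 it was 0.951, with 91 against 198 to 206. F7111 was not past the limit for Fgf21 or Gdf15.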

How the results depend on the processing

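The count of 0 hepatokines past the threshold held under all 15 alternatives, and no hepatokine changed sign under another pseudocount, filter, scaling or moderation, except that Gdf15 is not among the 8000 genes of highest mean, so that filter covers the other 6. With single mice left out, the sign turned for Gdf15 (-0.0643 without F7111, range -0.0643 to 0.93) and for Fetub (-0.00202 without H1315, range -0.00202 to 0.29). The ranges were 0.15 to 0.79 for Fgf21, 0.20 to 0.36 for Angptl4, -0.26 to -0.12 for Ahsg, -0.53 to -0.20 for Lect2 and -0.46 to -0.18 for Inhbe. Kng1 turned to -0.000291 without F2110 and to -0.00865 without H1315 and was at most 0.172. The 47 genes called in all (12 higher, 35 lower) became 19 in the 8000 genes of highest mean, where fewer genes were tested, and 30 with no mean-variance trend, where the cause was not tested. They numbered 16 to 77 with each mouse left out, 77 without F2212, 29 without F129, and 21, 19 and 16 without H1126, H828 and H817. Orm1 passed without H1315, Saa4 without F2110, and Apcs without F2212. With single mice left out, Tfrc ran from 0.00183 to 0.49, Insr from 0.0554 to 0.26, Met from 0.12 to 0.27, Smad2 from -0.23 to -0.0579 and Trf from -0.19 to -0.0628. No paired analysis was possible because the labels number no mice in common. Replicates are numbered in accession order only. The scaled values do not give the depth, so no counting interval was made for Gdf15, whose values run from 18 to 192.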
